A study of Mus musculus with 24 samples.

Results

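The EGF receptor family and its ligands were examined in the distal jejunum of wild-type and *Ptk6*-/- mice. The 10 members were chosen by gene name, as *Egfr*, *Erbb2*, *Erbb3*, *Lrig1*, *Tgfa*, *Areg*, *Ereg*, *Btc*, *Hbegf* and *Nrg1*, out of 34471 genes with at least 1 count. Bulk RNA-seq was available for 24 libraries in 8 groups of 3, and each group combined sex, genotype and drinking water. Wild-type males, *Ptk6*-/- males, wild-type females and *Ptk6*-/- females received regular water (control) or 100 mM succinate for 7 days. The *Ptk6*-/- mice carried a germline knockout on the C57BL/6 background, so *Ptk6* was disrupted in every tissue and not in the intestine alone. The animals were age matched, came from different litters of 1 colony and were 9 to 11 weeks old at the end. The libraries labelled by biological replicate number were treated as separate animals.

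EGFR, ERBB2 and ERBB3 are receptor tyrosine kinases that signal as dimers through the RAS-ERK and PI3K-AKT cascades. ERBB2 binds no ligand of its own, and ERBB3 has a weak kinase domain and acts through its partners. TGFA, amphiregulin (*Areg*), epiregulin (*Ereg*), betacellulin (*Btc*) and HB-EGF (*Hbegf*) are membrane-anchored ligands that are shed to activate EGFR. Neuregulin 1 (*Nrg1*) binds ERBB3 and ERBB4. LRIG1 is a transmembrane inhibitor of these receptors and marks intestinal stem and progenitor cells. In the gut, EGF family ligands from mesenchymal, Paneth and other cells sustain crypt growth. PTK6 is an intracellular tyrosine kinase of epithelial cells that acts downstream of growth factor receptors including EGFR.

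*Nrg1* had a positive difference between *Ptk6*-/- and wild-type mice in both sexes and under both drinking waters, and was the member with the smallest p-value for genotype. Its average over these groups passed the p threshold in the main analysis but not with a replicate block, a length offset or no count filter, no single sex and water passed in that analysis, though some did with DESeq2, with voom or without 1 library, and in succinate males the groups overlapped under 4 of 6 scalings. *Egfr* was higher in *Ptk6*-/- control males, where its mean rose from 17.9 to 38.2 CPM (counts scaled to a common library size). It passed both thresholds there in the main analysis, but not in 5 of 9 other settings, nor in 4 of 6 fits that left out 1 library. *Areg* had the opposite direction in control females, with a mean of 7.28 CPM in wild-type and 2.47 CPM in *Ptk6*-/- mice. It did not pass there in edgeR (adjusted p = 0.367), though DESeq2 and voom called it. With succinate, all 10 members had a negative average difference, the most negative being that of *Erbb3*, and none passed the test; that of *Lrig1* turned to 0.015 with an offset for gene length.

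Libraries held between 8080321 and 52824743 counts. *Ptk6* had 284 to 2405 counts in wild-type libraries and 7 to 61 in *Ptk6*-/- libraries. The epithelial markers *Epcam*, *Vil1*, *Cdx2* and *Krt20* summed to between 2812 and 10340 CPM in every library. Libraries that stood apart were control male wild-type replicate 1, with 51.2% of counts from the 18S row, succinate male *Ptk6*-/- replicate 1, which had the lowest total and 29.7% 18S, and succinate female wild-type replicate 2, in which 6 heart markers summed to 16350 CPM against 10.7 to 166.5 CPM elsewhere. The lung markers *Sftpc*, *Sftpb*, *Sftpa1* and *Scgb1a1* summed to 5.88 to 16.5 CPM in all 6 female *Ptk6*-/- libraries and in succinate female wild-type replicate 3, and to at most 0.717 CPM elsewhere. In whole tissue, fewer cells of a type and less RNA per cell cannot be told apart.

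The receptors *Erbb3* and *Erbb2* were the most abundant members per length. Median levels over the 24 libraries were 36.8 FPKM for *Erbb3* and 25.3 FPKM for *Erbb2*, and these genes held ranks 1 and 2 among the members in every library. *Egfr* was much lower, with a median of 1.13 FPKM. The inhibitor *Lrig1* had a median of 4.54 FPKM and the third highest level. Among the EGFR ligands, the order of median FPKM was *Hbegf* at 3.68, *Areg* at 2.52, *Tgfa* at 2.31, *Ereg* at 1.53 and *Btc* at 0.293. *Nrg1* was lowest, at 0.212 FPKM. Neighbouring genes in the middle of this order overlapped widely, and *Areg* took ranks from 3 to 8. *Btc* was listed at 0 in succinate male *Ptk6*-/- replicate 1, the shallowest library. FPKM is divided by the whole library, 18S included, so the order within a library is not affected by 18S, whereas levels between libraries are. Of the other receptors and ligands, *Erbb4* had at most 4 counts in 23 libraries, and 99 counts in the library with heart markers. *Epgn* and *Nrg3* reached at most 37 and 13 counts.

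**Figure D1:**
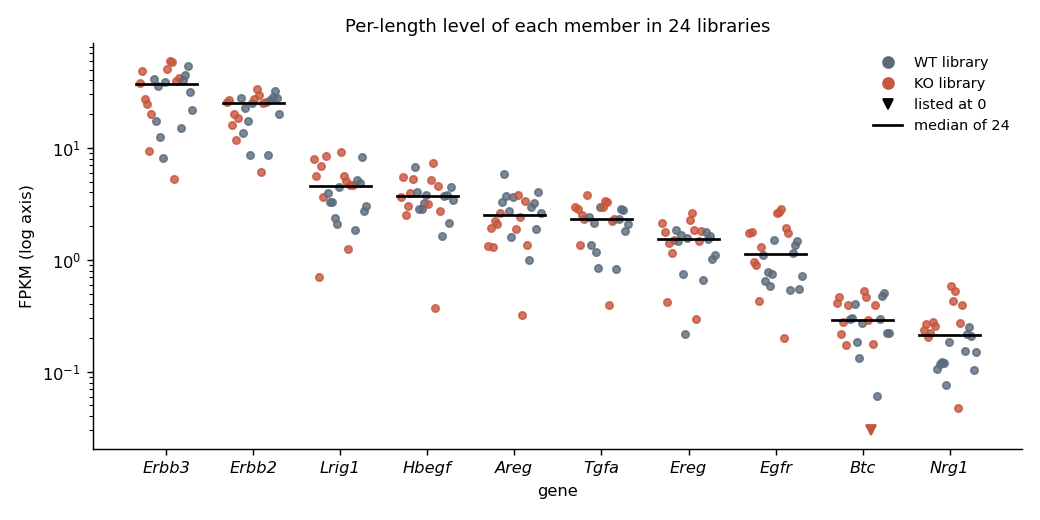
Per-length level (FPKM, log axis) of each member in the 24 libraries, with 1 point per library, coloured by genotype, a line at the median, and a triangle for the library in which *Btc* was listed at 0. *Erbb3* and *Erbb2*, at medians of 36.8 and 25.3 FPKM, lie above all other members, and *Btc* and *Nrg1* lie lowest at 0.293 and 0.212 FPKM.

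*Nrg1* (ENSMUSG00000062991, GRCm39 chr8:32304579-33374825, minus strand) was compared between genotypes within each sex and drinking water, to ask whether loss of PTK6 changed the ligand of ERBB3. In control females, *Nrg1* was at 2.28, 2.63 and 2.65 CPM in wild-type and at 4.32, 5.29 and 5.25 CPM in *Ptk6*-/- libraries. In control males, the values were 6.88, 4.22 and 5.06 CPM in wild-type and 10.4, 8.30 and 10.96 CPM in *Ptk6*-/- libraries. In succinate females, they were 2.68, 1.72 and 3.63 CPM against 4.101, 5.66 and 4.41 CPM. In succinate males, they were 3.52, 2.29 and 3.21 CPM against 3.57, 5.98 and 8.09 CPM. Every *Ptk6*-/- library was thus above every wild-type library of the same sex and water, in succinate males by 3.57 against 3.52 CPM, where the lower *Ptk6*-/- value came from 13 counts. Of 21694 genes tested, 1 gene, *Nrg1*, was higher without overlap in all 4 of these comparisons (0.00461% of genes), and *Ptk6* and *Wnt6* were lower without overlap in all 4 (0.00922%); these genes were named after their values were seen. This count depends on how libraries are scaled. With DESeq2 size factors *Nrg1* did not overlap in 4 comparisons either, but with TMM over unfiltered genes, with library totals, with or without 18S, or with FPKM, it did not overlap in 3, and the shallow succinate male *Ptk6*-/- replicate 1 then fell within or below the wild-type range.

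Averaged over sex and water, *Nrg1* was 0.92 higher on the log2 scale in *Ptk6*-/- mice (SE 0.16, edgeR quasi-likelihood test, adjusted p = 0.0438) and ranked 5 by p-value. It passed the p threshold but not the fold change of 2 that a call also required. Calls were made for 0.0184% of genes under both thresholds and for 0.0277% at any fold change. No member was called under both thresholds by edgeR, DESeq2 or voom, and 3 members had an unadjusted p under 0.05, as did 13.4% of genes. The adjusted p of *Nrg1* was 0.00785 without the 3 libraries that stood apart in 18S share, depth or heart markers. It was 0.107 with an offset for gene length fitted in each library, 0.0650 with the replicate block and 0.0835 with no filter on low counts. With voom, 6 members passed the p threshold at folds below 2, namely *Nrg1*, *Egfr*, *Areg*, *Ereg*, *Lrig1* and *Tgfa*, where voom passed 38.6% of all genes. Leaving out 1 library at a time gave log2 differences from 0.84 to 0.99 and adjusted p from 0.0151 to 0.144, under 0.05 in 5 of 24 fits. Within the single strata the log2 difference was 1.01 (SE 0.26) in control females, 0.87 (SE 0.24) in control males, 0.81 (SE 0.40) in succinate females and 1.01 (SE 0.44) in succinate males, with adjusted p of 0.367, 0.0712, 0.931 and 1.00. In control males *Nrg1* was called with voom (1.09, adjusted p = 0.00427), as were 3% of genes, and in edgeR without wild-type replicate 1 (1.11, adjusted p = 0.0349), passed the p threshold with DESeq2 (0.90, adjusted p = 0.00693), as did 21.1% of genes, and was at 0.57 (adjusted p = 0.158) with the length offset. In control females it passed the p threshold with voom (0.95, adjusted p = 0.0210), as did 20.7% of genes, and in edgeR without *Ptk6*-/- replicate 3 (0.98, adjusted p = 0.0433). In succinate males it was called with voom (1.28, adjusted p = 0.0225), as were 9.52% of genes. The second entry named *Nrg1* (ENSMUSG00000118541, chr8:32408601-32408786) had 3 counts in all and was not tested.

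**Figure D2:**
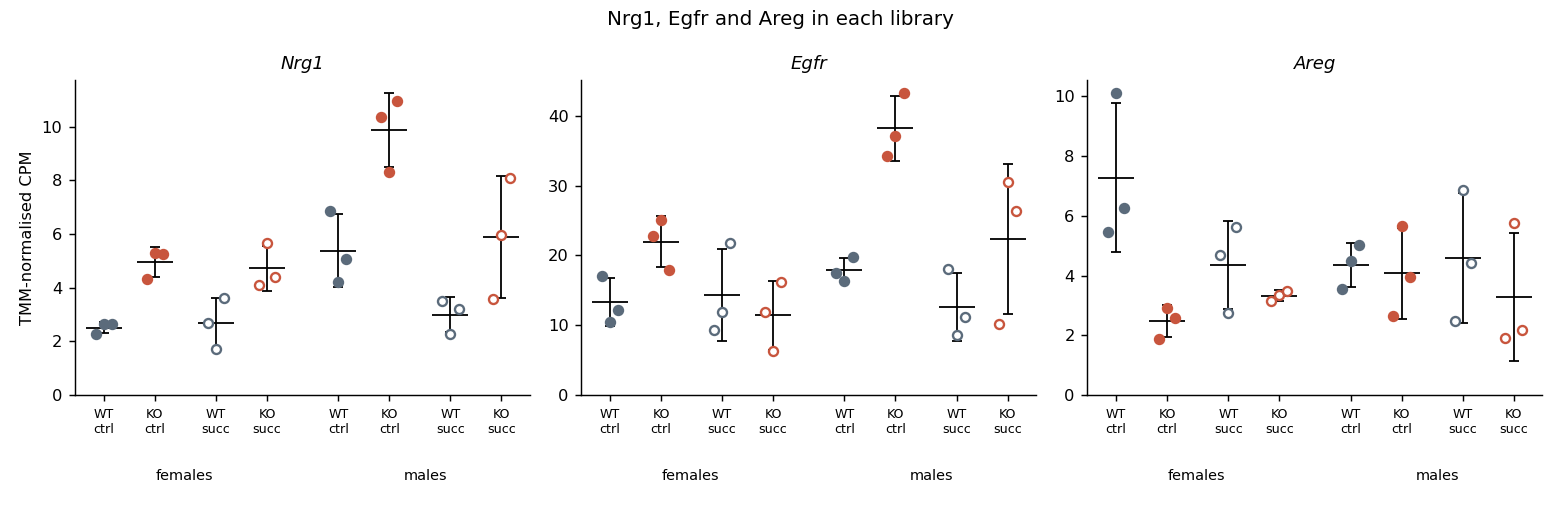
TMM-normalised CPM of *Nrg1*, *Egfr* and *Areg* in each library (grey wild-type, red *Ptk6*-/-, filled control, open succinate), with the mean and SD of 3 libraries per group. *Nrg1* is higher in *Ptk6*-/- libraries in all 4 pairs (3 of 4 under 4 of 6 scalings), *Egfr* in control males (34.2 to 43.3 against 16.4 to 19.9 CPM), and *Areg* lies lower in *Ptk6*-/- control females (1.89 to 2.93 against 5.47 to 10.1 CPM).

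Markers of the tissue's other cells are given beside *Nrg1*. The summed CPM of 5 fibroblast markers was 351 to 393 in wild-type and 411 to 579 in *Ptk6*-/- control females, without overlap, and 4 of the 5 had a positive difference. The ranges overlapped in control males (330 to 409 and 344 to 546), succinate females (474 to 804 and 544 to 797) and succinate males (288 to 414 and 239 to 415). The 4 nerve and glia markers summed to 5.002 to 6.83 CPM in wild-type and 7.12 to 10.01 CPM in *Ptk6*-/- control males, and to 10.3 to 10.97 and 7.37 to 9.87 CPM in control females, so that they moved in opposite directions in control males and control females. In succinate males they were lower without overlap in *Ptk6*-/- mice, at 8.78 to 30.1 and 1.10 to 8.05 CPM with 0 of 4 positive, and in succinate females they overlapped (8.01 to 10.3 and 6.70 to 8.11). The 4 leukocyte markers summed to 38.9 to 54.9 CPM in wild-type and 66.0 to 84.4 CPM in *Ptk6*-/- control females, without overlap, with 4 of 4 positive and a median difference of 0.74 against 0.19 for the fibroblast markers. They were lower without overlap in *Ptk6*-/- succinate males, at 93.8 to 108.3 and 33.2 to 64.8 CPM, and overlapped in control males (55.7 to 86.6 and 56.5 to 66.0) and succinate females (42.6 to 70.9 and 56.3 to 80.8). The 4 goblet cell markers were higher in sum without overlap in *Ptk6*-/- control males (4307 to 4451 and 6130 to 7782 CPM, 1 of 4 positive) and succinate males (4891 to 5630 and 6693 to 7323 CPM, 2 of 4 positive). In *Ptk6*-/- succinate females, enterocyte markers were lower (19400 to 31850 and 11560 to 14720 CPM, 0 of 5 positive) and stem cell markers higher without overlap (152 to 295 and 468 to 533 CPM, 4 of 4 positive). Heart markers were lower in sum without overlap in *Ptk6*-/- control females (30.4 to 54.2 and 11.4 to 20.9 CPM, 1 of 5 tested positive) and succinate females (28.02 to 16350 and 15.4 to 26.6 CPM, 0 of 4 tested positive). Lung markers were higher in sum without overlap in *Ptk6*-/- control females (0 to 0.331 and 10.4 to 16.5 CPM, 4 of 4 positive, 1 called). They overlapped in succinate females (0.0973 to 14.3 and 5.88 to 9.93 CPM). The part of these markers in the *Nrg1* difference was not tested.

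*Egfr* (ENSMUSG00000020122, GRCm39 chr11:16702203-16868158, plus strand) encodes the receptor for TGFA, amphiregulin and the other EGFR ligands. In control males, wild-type libraries were at 17.5, 16.4 and 19.9 CPM and *Ptk6*-/- libraries at 34.2, 37.1 and 43.3 CPM. The groups did not overlap, and the lowest *Ptk6*-/- library lay well above the highest wild-type library. The log2 difference was 1.08 (SE 0.14, adjusted p = 0.0200), and *Egfr* was the only member called in this comparison, in which 0.739% of genes were called. It ranked 35 of 19218 genes. The call was lost with the replicate block (log2 difference 1.07, adjusted p = 0.0539), with the length offset (0.76, adjusted p = 0.0613), on log2(FPKM + 1) (0.90, adjusted p = 0.145) and in a fit of all 24 libraries (1.09, adjusted p = 0.930). Replicates 2 and 3 of each genotype each ended the call when left out, with adjusted p from 0.0828 to 0.118. DESeq2 gave a log2 difference of 1.09 and an adjusted p of 1.42e-08, and called 2.11% of genes.

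In control females, *Egfr* was at 17.1, 10.54 and 12.2 CPM in wild-type and 22.8, 25.1 and 17.96 CPM in *Ptk6*-/- libraries. The groups did not overlap, but the log2 difference of 0.76 (SE 0.27) did not pass (adjusted p = 0.391). It passed the p threshold with voom (0.90, adjusted p = 0.0192) and in edgeR without *Ptk6*-/- replicate 3 (0.91, adjusted p = 0.0424), and was 0.51 with the length offset. In succinate males, it was at 18.1, 8.64 and 11.2 CPM against 10.2, 30.5 and 26.3 CPM, and in succinate females at 9.34, 11.97 and 21.8 CPM against 11.9, 6.35 and 16.2 CPM, with overlap in both sexes. Averaged over sex and water, the difference was 0.58 (SE 0.19, adjusted p = 0.291).

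The upstream window of *Egfr* is shown because it is the receptor that passed the test, and that of *Areg* because this ligand differed the other way. Both are RefSeq windows on GRCm38.p6, ending at the start site, with matches in capitals to the TATA box (TATAAA), the GC box (GGGCGG), the cAMP response element (TGACGTCA) and the AP-1 site (TGACTCA), each sought on both strands. They lie on the plus strand, *Egfr* at chr11:16751953-16752202 and *Areg* at chr5:91139349-91139598.
Egfr: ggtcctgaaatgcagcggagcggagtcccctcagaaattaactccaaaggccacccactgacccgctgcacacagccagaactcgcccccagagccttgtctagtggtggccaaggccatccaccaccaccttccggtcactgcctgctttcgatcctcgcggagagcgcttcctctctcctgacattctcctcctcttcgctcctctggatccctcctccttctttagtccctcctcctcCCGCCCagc
Areg: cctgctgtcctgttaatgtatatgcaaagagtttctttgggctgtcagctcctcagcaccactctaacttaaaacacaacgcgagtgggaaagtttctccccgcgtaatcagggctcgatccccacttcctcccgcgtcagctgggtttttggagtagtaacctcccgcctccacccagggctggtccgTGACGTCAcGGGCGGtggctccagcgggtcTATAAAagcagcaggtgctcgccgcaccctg
*Egfr* held 1 GC box, 9 bases before the start, and none of the other 3 motifs. *Areg* held a cAMP response element at 61, a GC box at 52 and a TATA box at 31 bases before the start. Of 32851 windows of this length, 32.7% held a GC box, 12.4% a TATA box, 1.55% the cAMP response element and 4.46% the AP-1 site. A window was found for 6 of the 10 members. *Lrig1* and *Tgfa* held 2 GC boxes each, and *Erbb2* and *Btc* held none of the 4 motifs. The GC share was 60.8% for *Egfr* and 57.2% for *Areg*. These matches describe letters and were not tested against expression.

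*Erbb2*, the co-receptor without a ligand, did not differ by genotype beyond its spread. Its average log2 difference was -0.01 (SE 0.15), and it turned positive, at 0.0027 to 0.11, under 7 of the 9 other settings. *Erbb3*, the neuregulin receptor, was at 260, 304 and 346 CPM in wild-type and 344, 442 and 475 CPM in *Ptk6*-/- control males. These ranges overlapped by a narrow margin, and the log2 difference of 0.46 (SE 0.16) did not pass (adjusted p = 0.128) and was 0.23 (SE 0.17) with the length offset. The inhibitor *Lrig1* was at 29.5, 35.9 and 34.5 CPM against 58.4, 38.8 and 37.8 CPM in the same males, without overlap (log2 difference 0.42, SE 0.18, adjusted p = 0.198). Without *Ptk6*-/- replicate 1, the library at 58.4 CPM, the *Lrig1* difference was 0.18, and with the length offset it was 0.20. In control females, *Lrig1* was at 51.9 and 39.6 CPM in *Ptk6*-/- replicates 1 and 2 and at 6.52 CPM in replicate 3, the lowest value of the 24 libraries. *Ereg* was also low in that library, at 2.89 CPM against 10.2 and 9.26 CPM in replicates 1 and 2. Its 5 enterocyte markers summed to 41110 CPM against 10320 and 11580 CPM, and a part of this in *Lrig1* or *Ereg* was not tested.

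Among the EGFR ligands, *Areg* (ENSMUSG00000029378, GRCm39 chr5:91287458-91296291, plus strand) stood out in control females. It lies on chromosome 5 near *Ereg* (chr5:91222481-91241505) and *Btc* (chr5:91505120-91550853). Wild-type control females were at 5.47, 10.1 and 6.27 CPM and *Ptk6*-/- control females at 1.89, 2.93 and 2.60 CPM. The groups did not overlap, with the highest *Ptk6*-/- library below the lowest wild-type library. The log2 difference was -1.53 (SE 0.34) and did not pass in edgeR (adjusted p = 0.367), where 0.0158% of genes were called. *Areg* was called by DESeq2 (adjusted p = 0.0261) and by voom with sample quality weights (adjusted p = 0.0175), which called 0.87% and 10.4% of genes, and in edgeR without *Ptk6*-/- replicate 3 (adjusted p = 0.0362). In control males, the values were 3.56, 4.48 and 5.02 CPM against 2.64, 5.67 and 3.94 CPM and overlapped. The difference between the sexes in this genotype effect was 1.46 on the log2 scale (SE 0.61, adjusted p = 1.00). Averaged over sex and water, *Areg* was at -0.62 (SE 0.21, adjusted p = 0.306).

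The neighbours of *Areg* on chromosome 5 did not follow it in control females. *Ereg* had a log2 difference of -0.32 (SE 0.45) and *Btc* of 0.04 (SE 0.34). In control males, *Ereg* was at 7.85, 9.26 and 8.14 CPM in wild-type and 10.7, 13.4 and 10.2 CPM in *Ptk6*-/- libraries, without overlap (0.43, SE 0.17, adjusted p = 0.158). *Tgfa*, *Hbegf* and *Btc* overlapped between genotypes in all 4 strata, and their average log2 differences were 0.29 (SE 0.17), 0.03 (SE 0.21) and 0.08 (SE 0.28). Over the 24 libraries they ranged from 7.75 to 28.6 CPM for *Tgfa*, from 7.95 to 47.4 CPM for *Hbegf* and up to 2.73 CPM for *Btc*. The remaining averages were 0.42 (SE 0.24) for *Lrig1*, 0.23 (SE 0.22) for *Ereg* and 0.10 (SE 0.23) for *Erbb3*.

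**Figure D3:**
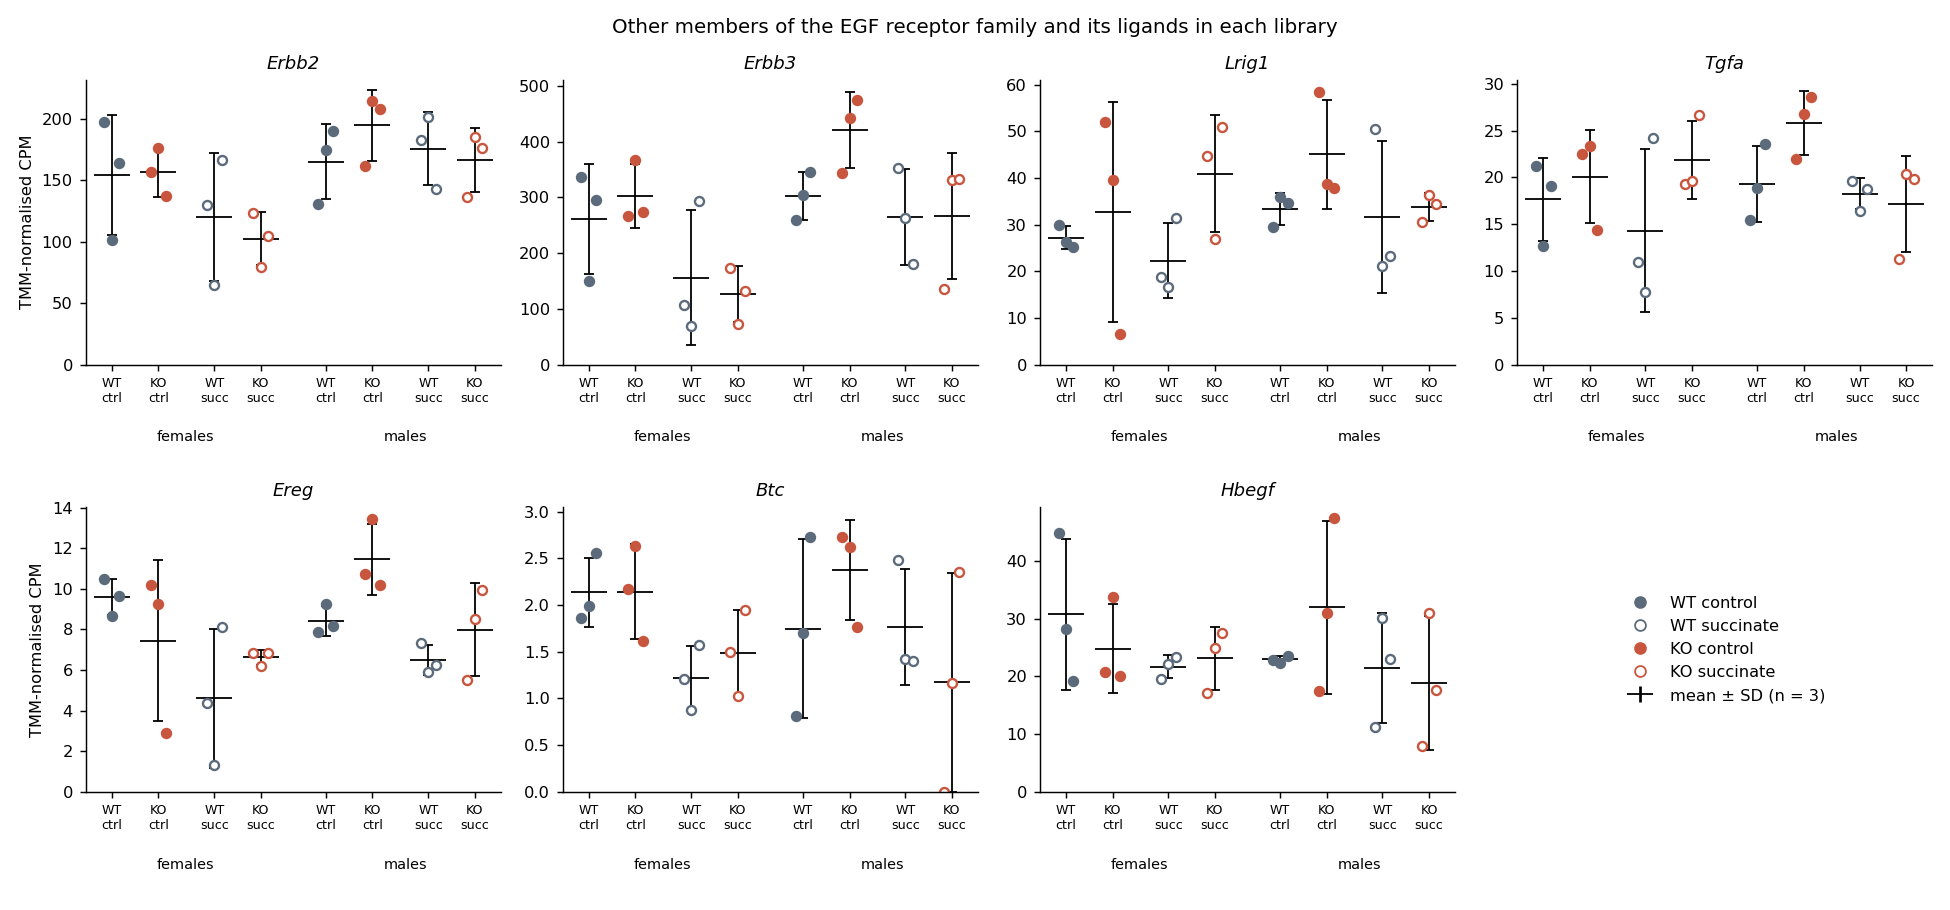
TMM-normalised CPM of the other 7 members in each library, with the mean and SD of 3 libraries per group. *Lrig1* and *Ereg* are lowest among the control female *Ptk6*-/- libraries in replicate 3 (6.52 and 2.89 CPM), and *Erbb3* and *Erbb2* are lower in female *Ptk6*-/- mice with succinate than without.

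Counted over the members, 9 of 10 had a positive genotype difference in control males, with a median of 0.42 against 0.02 for all genes. In that comparison 4 members did not overlap, all higher in *Ptk6*-/- mice, where 16.5% of all genes were higher without overlap. An unadjusted p under 0.05 was reached by 6 members and by 25.2% of genes. The trend of counts with gene length also separated these groups. Regressed on log2 length within a library, log2 CPM had a slope of 0.481 to 0.551 in wild-type and 0.635 to 0.676 in *Ptk6*-/- control males. Enterocyte markers summed to 18980 to 19690 CPM against 9016 to 15590 CPM, with 2 of 5 markers positive, and 3 endothelial markers to 51.0 to 67.6 CPM against 72.7 to 86.4 CPM, with 3 of 3 positive. Enteroendocrine markers summed to 174.9 to 192.4 CPM against 132.3 to 165.9 CPM, with 1 of 3 positive. The goblet sums, given above, also separated these groups, and 1 of the 4 goblet markers was called there. With the length offset, all 10 members were positive and their median was 0.25 against -0.08 for all genes, with *Egfr* at 0.76, and the part of the other values was not tested. In control females, 2 members were higher and 1 lower without overlap, against 8.51% and 10.3% of all genes. There, no member was called by edgeR and 3 had an unadjusted p under 0.05, as did 11.1% of genes.

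With succinate, *Nrg1* was the only member without overlap in succinate males and in succinate females, where 2.78% and 6.31% of all genes were higher without overlap. Without the shallow *Ptk6*-/- replicate 1, 4 members were higher without overlap in succinate males and 8 of 10 differences were positive in place of 5, while 13.1% of all genes were then higher without overlap. Without the wild-type replicate with heart markers, 1 member was higher and 2 lower without overlap in succinate females, against 10% and 7.47% of all genes. No member was called by edgeR or DESeq2 in either sex. Of all genes, edgeR called 0% in males and 0% in females, and DESeq2 0.318% and 0.199%. In each sex 1 member had an unadjusted p under 0.05 in edgeR, as did 2.72% and 4.52% of genes. With voom, *Nrg1* and *Egfr* were called in succinate males, where voom called 9.52% of genes as given above.

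**Figure D4:**
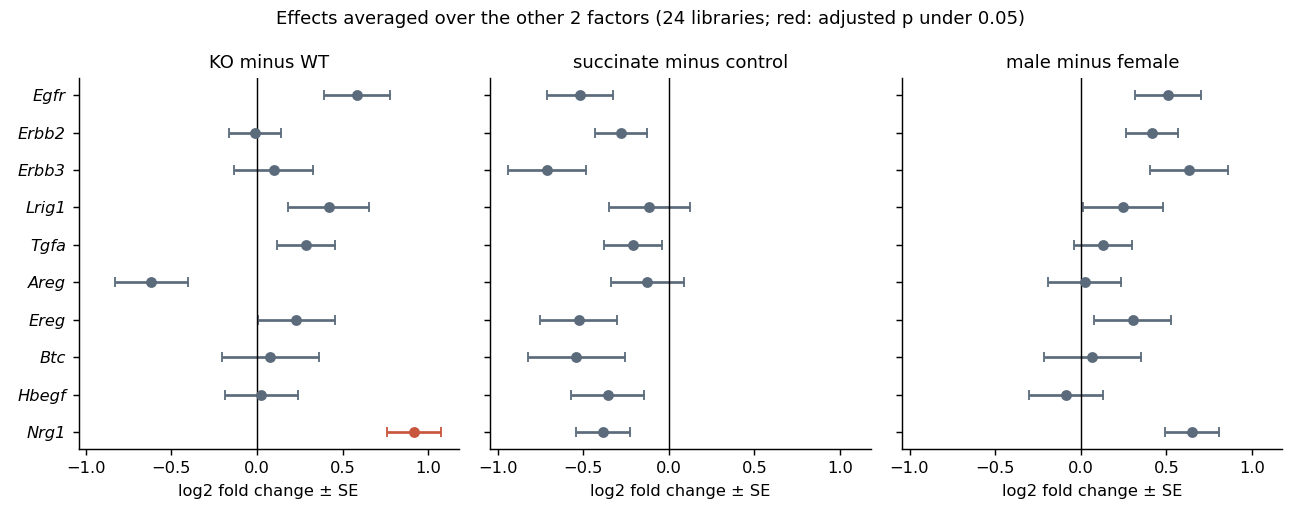
Log2 fold change with its SE for each member, averaged over the other 2 factors in a fit of 24 libraries, for genotype, succinate and sex. *Nrg1* is the only point with an adjusted p under 0.05 (0.92 for genotype), all 10 succinate differences are negative (*Lrig1* turned positive with the length offset), and 9 of 10 sex differences are positive (*Areg* turned negative on log2(FPKM + 1), *Hbegf* positive with voom).

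The rest of the pathway was described from lists of receptors, sheddases, inhibitors, signal transducers and ERK-responsive genes, which were compiled with earlier results of these data known. In control males, the feedback inhibitor *Errfi1*, which binds and restrains EGFR, was called. The values of the list genes come from the main analysis. The alternatives used for the members, such as the length offset and leaving out a library, were not applied to them. An adjusted p under 0.05 at any fold change was reached by 4.23% of genes in this comparison. *Errfi1* was at 28.2, 33.7 and 32.3 CPM in wild-type and 49.4, 80.4 and 75.1 CPM in *Ptk6*-/- libraries, a log2 difference of 1.10 (SE 0.18, adjusted p = 0.02997). All 13 inhibitor and feedback genes had a positive difference, with a median of 0.45 against 0.02 for all genes, and 6 were higher without overlap, against 16.5% of all genes. Besides *Errfi1*, *Spred2*, an inhibitor of RAS-ERK signalling, passed the p threshold at a smaller fold, at 0.83 (SE 0.11, adjusted p = 0.0230). Of 23 signal transduction genes, 18 were positive, 9 were higher and 2 lower without overlap, against 16.5% and 14.9% of all genes, and 3 passed the p threshold, with *Stat3* at 0.75, the RAS activator *Sos2* at 0.73 and *Hras* at -0.79. Of 8 ERK-responsive genes tested, *Phlda1* passed, at 0.88. The further feedback genes without overlap were *Dusp4*, a phosphatase of ERK, at 1.15 (adjusted p = 0.0542), the ubiquitin ligases *Cbl* at 0.55 and *Cblb* at 0.45, and *Spry1* at 0.44. None of the 4 sheddase genes passed, and of these the protease *Adam10* and *Rhbdf2*, a partner of ADAM17, did not overlap, at 0.36 and 0.38.

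The same lists gave no gene that passed in any other comparison by edgeR. In control females, 10 of 13 inhibitor and feedback genes had a positive difference, from -0.26 to 1.73, with a median of 0.23 against 0.04 for all genes. Of these 13, 3 were higher without overlap, against 8.51% of all genes. Of 23 signal transduction genes, 14 were positive, and 1 was higher and 3 lower without overlap, against 8.51% and 10.3% of all genes. In control females, *Spred2* was at 25.0, 15.5 and 23.4 CPM in wild-type and 38.0, 41.2 and 45.5 CPM in *Ptk6*-/- libraries, without overlap (log2 difference 1.00, SE 0.24, adjusted p = 0.367). *Errfi1* did not follow the male pattern, with 25.4, 34.4 and 31.3 CPM against 33.6, 35.6 and 22.9 CPM (0.05, SE 0.26). The difference of the *Errfi1* genotype effect between the sexes was 1.10 (SE 0.46, adjusted p = 1.00).

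**Figure D5:**
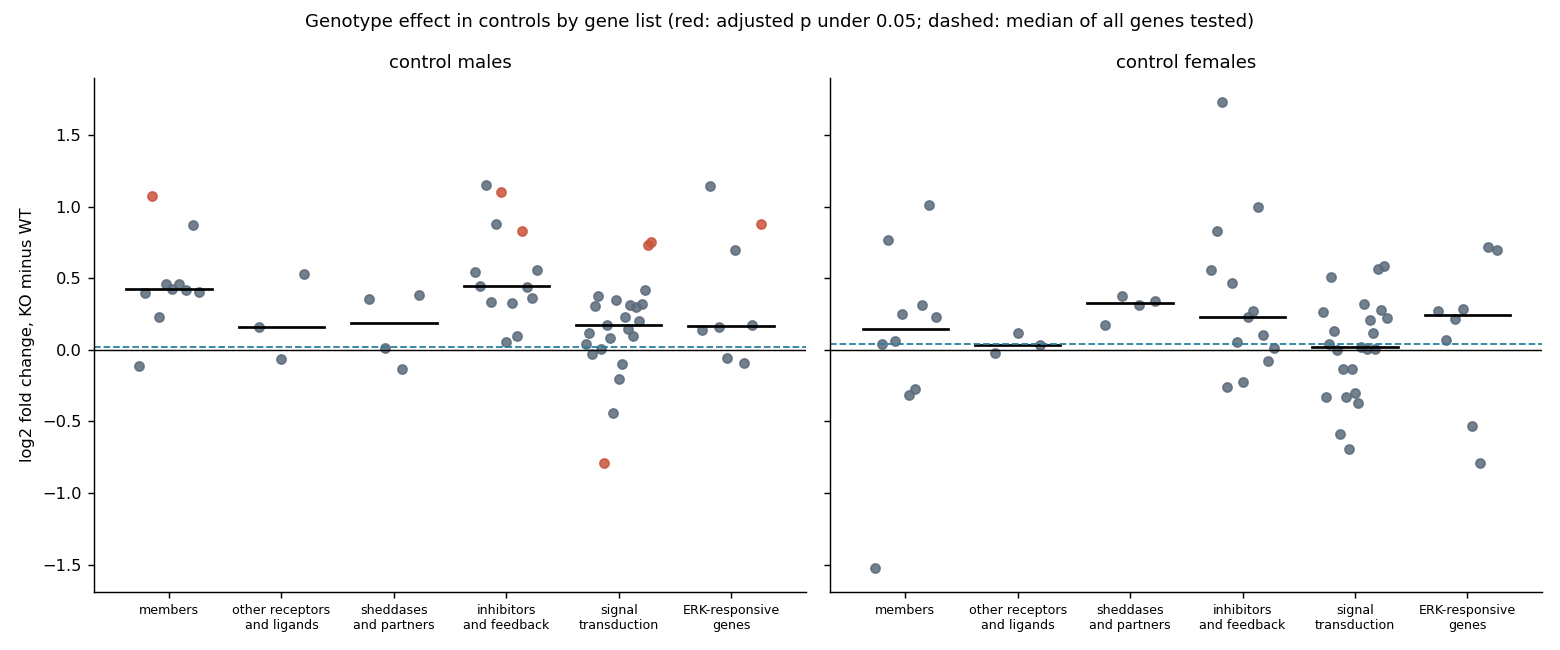
Log2 fold change of *Ptk6*-/- over wild-type for the members and 5 pathway lists in control males and control females, with 1 point per gene, a line at each list's median and a dashed line at the median of all genes tested. In males *Egfr* (1.08), *Errfi1* (1.10) and 5 further genes are marked as passing the adjusted p threshold, and in females none is.

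Succinate was compared with regular water within each sex and genotype, to ask how a stimulus of type 2 immunity moved the members. Averaged over sex and genotype, all 10 members had a negative difference, from -0.71 to -0.11 on the log2 scale (*Lrig1* at 0.015 with the length offset), with a median of -0.37 against -0.0025 for all genes. Without the 3 libraries that stood apart, the 10 were again negative, with a median of -0.24. Markers of tuft cells, which sense succinate, and of mast cells were called higher in the same comparison, 4 of 5 and 2 of 4, with medians of 1.72 and 2.13. Of the Paneth cell markers 1 of 4 was called, with a median of 0.50, and 6 of 6 heart markers were positive, with a median of 2.16 and none called. The 4 epithelial markers moved with the members, with 0 of 4 positive and a median of -0.37, and their part was not tested. None of the members was called by edgeR, DESeq2 or voom, where edgeR called 0.728% of genes, and 4 members and 16.1% of genes had an unadjusted p under 0.05. *Erbb3* was at -0.71 (SE 0.23, adjusted p = 0.154), *Ereg* at -0.53 (SE 0.22), *Egfr* at -0.52 (SE 0.19) and *Nrg1* at -0.38 (SE 0.16). *Btc* was at -0.54 (SE 0.28), *Hbegf* at -0.36 (SE 0.21), *Erbb2* at -0.28 (SE 0.15), *Tgfa* at -0.21 (SE 0.17), *Areg* at -0.13 (SE 0.21) and *Lrig1* at -0.11 (SE 0.24). Without succinate female wild-type replicate 3, *Erbb3* passed the p threshold, at -0.92 (adjusted p = 0.00958). With voom, *Erbb3* (adjusted p = 0.00227), *Egfr*, *Ereg*, *Btc*, *Erbb2* and *Tgfa* passed the p threshold at folds below 2, as did 21.9% of all genes, and with DESeq2 *Erbb3* passed by a narrow margin (adjusted p = 0.04999), as did 3.97% of genes.

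*Erbb3* (ENSMUSG00000018166, GRCm39 chr10:128403392-128425521, minus strand) had the widest range of group means among the 8 members with at least 10 counts in every library, at 1.80 on the log2 scale. In *Ptk6*-/- females it was at 266, 368 and 273 CPM in controls and at 174, 73.4 and 132 CPM with succinate. These groups did not overlap, and the log2 difference was -1.29 (SE 0.37, adjusted p = 0.377). *Erbb2* and *Egfr* were lower without overlap in the same animals, at -0.64 (SE 0.27) and -0.96 (SE 0.37), so that the succinate libraries lay below the control range for all 3 receptors. Across all genes, 10.1% were lower without overlap and 0.0879% were called. The 4 epithelial markers summed to 6069 to 7922 CPM in these controls and to 4200 to 5350 CPM with succinate, without overlap and with 0 of 4 markers positive. In the same comparison the sums of tuft cell (11.2 to 18.9 and 53.9 to 139.7 CPM), mast cell (18.9 to 31.3 and 81.3 to 840.3 CPM) and stem cell markers (161 to 410 and 468 to 533 CPM) were higher with succinate without overlap, with 4 of 4, 4 of 4 and 3 of 4 positive. The part of these markers in the receptor values was not tested. *Areg* was higher without overlap, as were 11.2% of genes, at 1.89, 2.93 and 2.60 CPM in controls and 3.15, 3.35 and 3.49 CPM with succinate (0.41, SE 0.32, adjusted p = 0.672).

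In wild-type females, *Erbb3* was at 337, 151 and 296 CPM in controls and at 106, 68.7 and 294 CPM with succinate, with overlap. *Ereg* was lower without overlap there, at 10.48, 8.68 and 9.63 CPM against 4.37, 1.297 and 8.14 CPM, and the lowest of these was the library with heart markers. *Btc* was lower without overlap too, at 1.86, 1.99 and 2.56 CPM against 1.20, 0.876 and 1.57 CPM. Among all genes, 7.31% were lower without overlap. Beside these, the sums of tuft cell (13.5 to 21.5 and 38.9 to 107.7 CPM), mast cell (21.95 to 27.2 and 28.6 to 148.9 CPM), fibroblast (351 to 393 and 474 to 804 CPM) and endothelial markers (49.8 to 59.1 and 60.8 to 196.4 CPM) were higher with succinate without overlap. The epithelial markers had 0 of 4 positive and a median of -0.715, and their sums overlapped (6978 to 10340 and 2812 to 7540 CPM). The part of all these markers was not tested.

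In *Ptk6*-/- males, all 10 members had a negative difference with succinate, with a median of -0.60 against -0.10 for all genes. Replicate 1 of the succinate group, the shallow library with 29.7% 18S, was the lowest of its group for all 10 members. Without it, 10 of 10 were still negative, with a median of -0.38 against -0.03 for all genes. With the length offset 8 were negative, with *Erbb2* at 0.30 and *Lrig1* at 0.15, and the medians were -0.24 and 0.22. *Egfr*, *Erbb3*, *Lrig1*, *Tgfa*, *Ereg* and *Nrg1* did not overlap, against 12% of all genes lower without overlap. *Nrg1* was at 10.4, 8.30 and 10.96 CPM in controls and 3.57, 5.98 and 8.09 CPM with succinate (-0.69, SE 0.31, adjusted p = 0.6003), and *Egfr* at 34.2, 37.1 and 43.3 CPM against 10.2, 30.5 and 26.3 CPM (-0.74, SE 0.35, adjusted p = 0.6003). *Erbb3* was at -0.64 (SE 0.35), *Tgfa* at -0.55 (SE 0.25), *Ereg* at -0.48 (SE 0.27) and *Lrig1* at -0.39 (SE 0.24). With the length offset, these values were smaller in size, at -0.35 for *Nrg1*, -0.39 for *Egfr*, -0.25 for *Erbb3* and -0.12 for both *Tgfa* and *Ereg*. Without the shallow library, *Erbb3* was at -0.36 and *Egfr* at -0.45, and without control replicate 1 *Lrig1* was at -0.13. In the same comparison, markers of other cells moved without overlap, with enterocyte markers summing to 9016 to 15590 CPM in controls and 17690 to 47190 CPM with succinate (4 of 5 positive), endothelial markers to 72.7 to 86.4 and 35.4 to 66.4 CPM (0 of 3) and tuft cell markers to 14.5 to 20.2 and 23.1 to 27.98 CPM (3 of 4). Heart markers (10.7 to 25.3 and 30.4 to 166.5 CPM) and smooth muscle markers (1470 to 2223 and 2259 to 2272 CPM) were also higher with succinate. Their part in the values of the members was not tested. In wild-type males, *Nrg1* and *Ereg* were lower without overlap, at -0.85 (SE 0.32) and -0.38 (SE 0.22), against 4.15% of all genes. Over 9 other settings *Ereg* ranged from -0.49 to -0.02. In FPKM, where 18S enters the levels, both genes overlapped between these groups. There the sums of tuft (15.9 to 18.7 and 20.9 to 31.9 CPM), mast (22.4 to 25.4 and 27.6 to 33.1 CPM), leukocyte (55.7 to 86.6 and 93.8 to 108.3 CPM), goblet (4307 to 4451 and 4891 to 5630 CPM) and nerve and glia markers (5.002 to 6.83 and 8.78 to 30.1 CPM) were higher with succinate without overlap, and their part was not tested. The comparisons of genotype and of succinate share the control libraries, so a high control group enters both.

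No interaction of genotype with succinate passed for a member. For *Nrg1* it was 0.12 (SE 0.44) in males and -0.16 (SE 0.45) in females, and for *Egfr* -0.25 (SE 0.55) in males and -1.05 (SE 0.55, adjusted p = 0.657) in females. The member with the smallest p was *Hbegf* in males, at -0.64 (SE 0.61), and *Areg* in females, at 1.17 (SE 0.60, adjusted p = 0.650). For the interaction of all 3 factors it was *Areg* as well, at -1.50 (SE 0.86, adjusted p = 0.852). In each of the 4 interactions, edgeR called 0 members and 0 of all 21694 genes tested, so the count says nothing particular to the members. DESeq2 and voom also called 0 members. That of *Areg* for sex by genotype in controls was the 1 value with an unadjusted p under 0.05 in edgeR, as had 2.4% of genes there.

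Between the sexes, 9 of 10 members had a positive difference, with *Hbegf* at -0.09 as the exception, and the signs of *Hbegf* (0.17 with voom) and *Areg* (-0.14 on log2(FPKM + 1)) depended on the setting. *Nrg1* was 0.65 higher in males (SE 0.16, edgeR adjusted p = 0.0712). *Erbb3* followed at 0.63 (SE 0.23, adjusted p = 0.203), *Egfr* at 0.51 (SE 0.19, adjusted p = 0.229) and *Erbb2* at 0.42 (SE 0.15, adjusted p = 0.211). *Ereg* was at 0.30 (SE 0.22), *Lrig1* at 0.25 (SE 0.24), *Tgfa* at 0.13 (SE 0.17), *Btc* at 0.07 (SE 0.28) and *Areg* at 0.02 (SE 0.21). Beside these, marker medians for males over females were -1.30 for tuft cells (0 of 5 positive), -2.18 for mast cells (0 of 4, 1 called), -0.76 for Paneth cells (1 of 4, 1 called), -0.62 for fibroblasts (1 of 5), -0.65 for smooth muscle (0 of 4), -1.33 for heart (0 of 6), -4.97 for lung (0 of 4) and 0.21 for the epithelial markers (4 of 4), and their part was not tested. No member was called by edgeR, DESeq2 or voom, where edgeR called 0.36% of genes, and 4 members and 15.3% of genes had an unadjusted p under 0.05. *Nrg1* passed the p threshold with DESeq2 (adjusted p = 0.00140) and voom (adjusted p = 0.00596), and *Egfr*, *Erbb2* and *Erbb3* passed with voom but not DESeq2; 3.39% of all genes passed with DESeq2 and 6.41% with voom. *Nrg1* also passed in edgeR without succinate male *Ptk6*-/- replicate 1 (adjusted p = 0.0298) or succinate female wild-type replicate 3 (adjusted p = 0.0153). *Erbb3* passed in 1 of the 24 edgeR fits that left out 1 library (adjusted p = 0.0218).

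The genes whose 8 group means most resembled those of *Erbb3*, after centring on the log2 scale, were *Adgrd1*, *Mertk* and *Irgm2*, with root mean square differences of 0.124, 0.136 and 0.138. The measure was a description over 8 groups with no test.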

How the data were processed

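RNA from distal jejunum was made into poly(A)-selected, strand-marked libraries, and the authors trimmed, aligned and assembled the reads with Cutadapt, HISAT2 and StringTie on GRCm39. The deposited files gave counts per gene, not normalized, and FPKM per gene (fragments scaled by gene length and library size). The counting program and the annotation release are not given in the sources used here.

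The counts were scaled by TMM and tested with edgeR 4.0.16 in R 4.3.3 by the quasi-likelihood test, on genes that reached 10 counts in 3 or more libraries. The 8 comparisons of 2 groups used 6 libraries each, and the 3 averaged effects and 4 interactions came from 1 fit of 8 group means over 24 libraries. A call required a Benjamini-Hochberg adjusted p under 0.05 over all genes tested and a fold change of at least 2. CPM values were TMM-normalized over 24 libraries, and no overlap means that every library of one group lay beyond every library of the other. FPKM was used for levels between genes. The named genes were all members, the list genes past the threshold in a comparison and, for the member with the widest range, the 3 genes most like it. The members and lists were chosen with earlier results of these data known.

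Alternatives were DESeq2 1.42.0 and its size factors, voom with limma 3.58.1, no count filter, log2(FPKM + 1) for genes with a mean of at least 0.5 FPKM, a block on replicate number, an offset for gene length, a fit of all libraries and leaving out each library. The scalings by library totals, FPKM and TMM over unfiltered genes for overlap, and counts by sign without libraries that stood apart or with the length offset, were added after the data were seen. With counts simulated for the averaged genotype comparison over 21177 genes, 53.5% of 99 genes changed 2-fold were recovered, and for control males over 18650 genes 25.5% of 98. Recovered means an adjusted p under 0.05 in the right direction at any fitted fold change, which is a looser rule than that of a call. Of the genes with an adjusted p under 0.05 in these simulations, 8 of 131 and 14 of 112 had not been changed. P-values of the comparisons of 2 groups measure the spread between 3 animals per group. Those of the averaged effects and interactions use a spread pooled over the 8 groups, with 16 residual degrees of freedom.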

Additional observations from a re-analysis of the deposited data

How the results depend on the processing

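The number of members called was 0 or 1 of 10 in each comparison, so it can show little change. In control males, where 1 member was called by genotype, 2 were called with voom, 0 on log2(FPKM + 1), 0 with the replicate block, 0 with the length offset, 0 with the length offset and replicate block, 0 with all 24 libraries in 1 fit, and 0 to 2 when 1 library was left out. In control females, DESeq2 and voom each called 1 (*Areg*), and leaving out 1 library gave 0 to 1. In succinate males, voom called 2. For the averaged genotype effect, 1 member (*Nrg1*) was called with no fold change threshold. The cause of these changes was not tested.

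Of 53 fold changes followed through 1322 alternatives, 8 changed sign in some, the farthest from 0 being that of *Lrig1* in *Ptk6*-/- males (-0.39). The averaged genotype difference of *Erbb2* became 0.012 with DESeq2 size factors, 0.012 with DESeq2, 0.11 with voom, 0.0057 with no count filter, 0.032 on log2(FPKM + 1), 0.0027 with the length offset and 0.0085 with the length offset and replicate block, and ranged from -0.087 to 0.066 when 1 library was left out. That of *Hbegf* became -0.029 with the replicate block, also with the length offset (-0.031), and ranged from -0.11 to 0.12. That of *Btc* ranged from -0.12 to 0.19. The sex difference of *Areg* became -0.14 on log2(FPKM + 1) and -0.051 with the replicate block and ranged from -0.15 to 0.10. That of *Hbegf* became 0.17 with voom and ranged from -0.22 to 0.015, and that of *Btc* ranged from -0.13 to 0.18. The succinate difference of *Lrig1* in *Ptk6*-/- males became 0.15 with the length offset and 0.12 with the replicate block added, and its average became 0.015 and 0.018 and ranged from -0.24 to 0.01.

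The replicate numbers did not meet the criterion for pairing samples. Over 28 pairs of groups, deviations of equal numbers correlated between -0.32 and 0.30, and in 0 pairs were all 3 correlations over 0.1. For example, they were 0.083 to 0.196 between wild-type control and *Ptk6*-/- succinate males, where 2 of 3 libraries matched best with their own number, and between control males of both genotypes they were -0.07 to 0.02. The block changed no other call under both thresholds. *Nrg1* and *Btc* fell below the FPKM filter and have no value there. *Nrg1* had 13 counts and *Btc* 0 in the shallowest library, so their levels there are imprecise.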
